A study of Mus musculus with 11 samples.

Results

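The Hox genes of the mouse are the homeobox genes of 4 chromosomal clusters, HoxA on chromosome 6, HoxB on chromosome 11, HoxC on chromosome 15 and HoxD on chromosome 2, and were followed here in the whole colon of young mice with and without the tumour necrosis factor receptor TNFR1. Members were every gene whose symbol is Hox followed by a cluster letter and a paralogue number. The rule found 40 Ensembl gene IDs under 39 symbols among 35683 genes, since Hoxd4 is listed under 2 IDs, and it used no measured value. The colons came from 6 mice labelled Tnfr1-/-, for loss of the receptor, and from 5 wild type mice, all 2 weeks old. No other allele or treatment is named in the labels used here, and they give neither a litter nor a processing batch. Each library was made from the full thickness of the colon, so it pools epithelium, connective tissue, muscle and enteric nervous system, and the length or position of the piece taken is not stated. Where a gene's level differs between libraries, fewer cells of a type and less RNA per cell cannot be told apart.

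Hox genes encode transcription factors that bind DNA through a homeodomain and give cells their position along the body axis. Within a cluster the genes lie in the order of their paralogue numbers, and genes nearer the 5′ end of the cluster, which carry the higher numbers, are used further toward the tail. In the gut, Hox genes are active in the mesenchyme and in enteric neurons as well as in the epithelium, and the genes of paralogue group 13 are known for their part in forming the hindgut, its anal end and the urogenital tract.

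The 4 paralogues of group 13 were distinguishable at sequence level even where they are most alike, which bears on how reads were assigned to them. The following 45 bases of coding sequence, read from GENCODE M21 transcripts and written in the direction of transcription, span the third helix of the homeodomain, which contacts DNA, with the 18 bases that encode its most conserved residues in capitals.
Hoxa13: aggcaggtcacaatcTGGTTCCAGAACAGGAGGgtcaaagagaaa
Hoxb13: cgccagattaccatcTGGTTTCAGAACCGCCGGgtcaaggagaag
Hoxc13: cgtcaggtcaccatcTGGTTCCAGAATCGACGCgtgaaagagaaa
Hoxd13: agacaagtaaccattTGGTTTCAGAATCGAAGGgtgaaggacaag
Any pair of these 4 stretches differed at 9 to 13 of the 45 bases. Over all members, pairs with the same paralogue number in different clusters differed at a median of 6 bases (45 pairs of gene IDs), against 11 for pairs within 1 cluster (180 pairs). Of the 40 IDs, 35 shared no 75-base window, the read length, with another member in the annotated transcripts. The exceptions were both Hoxd4 IDs, whose windows were 90.4% and 69.1% shared, Hoxd3 (7.51%, with Hoxd4), and Hoxc5 and Hoxc10 (3.12% and 5.12%, with each other). The values of Hoxd3, of either Hoxd4 ID, of Hoxc5 and of Hoxc10 are therefore uncertain to the extent that the counting split shared reads.

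Upstream sequence is shown for 3 genes on which the later comparisons turn: Hoxa13 and Hoxd13, the group 13 genes of 2 clusters that varied differently between colons, and Hoxb8, which varied against the HoxA genes. Each line holds the 250 bases before the RefSeq start site (GRCm38.p6), written in the direction of transcription, with matches to any of 3 motifs on either strand in capitals. The motifs were TTTATTG, the core of the sequence bound by CDX factors; a form bound by Hox factors of the higher paralogue groups, TTTACGA; and the TATA box core, which was searched as TATAAA. The windows are chr6:52260881-52261130, minus strand, for Hoxa13; chr11:96281655-96281904, plus strand, for Hoxb8; and chr2:74667975-74668224, plus strand, for Hoxd13.
Hoxa13: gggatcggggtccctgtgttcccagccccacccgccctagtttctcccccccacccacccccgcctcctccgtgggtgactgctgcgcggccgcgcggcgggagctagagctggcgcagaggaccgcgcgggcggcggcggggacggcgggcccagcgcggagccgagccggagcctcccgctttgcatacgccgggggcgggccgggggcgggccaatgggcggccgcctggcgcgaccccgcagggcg
Hoxb8: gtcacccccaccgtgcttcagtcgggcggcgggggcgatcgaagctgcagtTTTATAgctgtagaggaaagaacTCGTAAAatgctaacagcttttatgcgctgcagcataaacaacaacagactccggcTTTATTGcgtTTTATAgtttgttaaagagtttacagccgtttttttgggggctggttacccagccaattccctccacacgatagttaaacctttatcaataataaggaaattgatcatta
Hoxd13: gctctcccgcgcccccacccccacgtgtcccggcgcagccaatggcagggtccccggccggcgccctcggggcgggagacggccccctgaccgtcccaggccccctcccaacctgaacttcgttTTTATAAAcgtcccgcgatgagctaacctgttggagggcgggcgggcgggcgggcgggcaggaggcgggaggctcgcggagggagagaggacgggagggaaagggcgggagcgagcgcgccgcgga
The promoter table held 24 entries for 22 Hox symbols. In windows running to 50 bases past the start, these 24 held a median of 14.5 CG pairs (4 to 45), against 7 over all 32851 promoters. Hoxa13 held the most, 45, and Hoxd13 held 37. TTTATTG occurred on either strand in 2 of the 24 windows (8.33%, against 4.60% of all promoters) and the motif TTTACGA in 2 (8.33%, against 0.597%). TATAAA occurred in 4 (16.7%, against 13.6%) and the shorter TTTATG, which shares its first letters with the CDX motif, in 5 (20.8%, against 11.9%). Hoxb8 was the only member with an entry to hold both the CDX motif and TTTACGA. These matches describe letters in the windows and were not tested against the expression values.

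The receptor gene followed the labels, with its RNA lower but not absent in Tnfr1-/- colons. Tnfrsf1a stood between 61.7 and 73.1 in wild type and between 19.0 and 28.0 in Tnfr1-/- colons, in the normalized abundance that the authors deposited, a value scaled to library size and transcript length. Tnfrsf1a lies on chromosome 6, as the HoxA cluster does. Depth, estimated from the steps between low values, was 28.4 M to 43.3 M assigned reads per library. Several libraries stood apart in tissue make-up. Skeletal muscle RNA, all 6 of whose markers were measured and none of which was at 0, summed to 395 to 1627 in wild type and 514 to 7574 in Tnfr1-/- colons, with replicates 2 and 5 of the mutant highest. Squamous epithelium of the anal canal (10 of 10 markers, none at 0) summed to 525 to 935 and to 393 to 2021, with Tnfr1-/- replicate 5 lowest. Epithelial markers summed to 2919 to 5083 in wild type, where replicates 1 and 2 were highest, and to 2889 to 3974 in Tnfr1-/-. Among the small intestine markers, Gata4 was at most 0.450 and Lct at most 0.710 in any library. The others were measured at higher levels: Alpi at 56.2 to 123, Sis at 6.77 to 27.4 and Fabp6 at 2.34 to 9.07. Apoa1 stood at 1.10 to 10.3 and Apoa4 at 0.264 to 8.31.

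The colons carried Hox RNA mainly from HoxA and HoxB, and the single largest share came from paralogue group 13. Summed over all 40 IDs, Hox abundance was 436 ± 11.3 (SD, n = 5) in wild type and 446 ± 37.3 (SD, n = 6) in Tnfr1-/- colons. HoxB supplied 38.8% of the total (34.7% to 44.9% over the 11 libraries), HoxA 38.4% (25.5% to 45.7%), HoxD 20.2% (14.9% to 27.5%) and HoxC 2.66% (1.24% to 5.58%). The HoxA and HoxB shares overlapped across libraries, whereas the HoxC share was below that of each other cluster in every library. By paralogue number, group 13 gave 30.0% (22.2% to 39.1%), group 9 gave 17.1%, group 10 gave 13.4% and group 7 gave 9.50%. Groups 1 and 12 lay at the bottom, with 0.106% and 0.594%. The summed level therefore did not climb evenly with number: groups 11 and 12 lay below groups 9 and 10 on one side and group 13 on the other. These sums cover unequal numbers of members: 4 in groups 9 and 13, 3 in groups 10 and 11, and 2 in group 12.

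**Figure D1:**
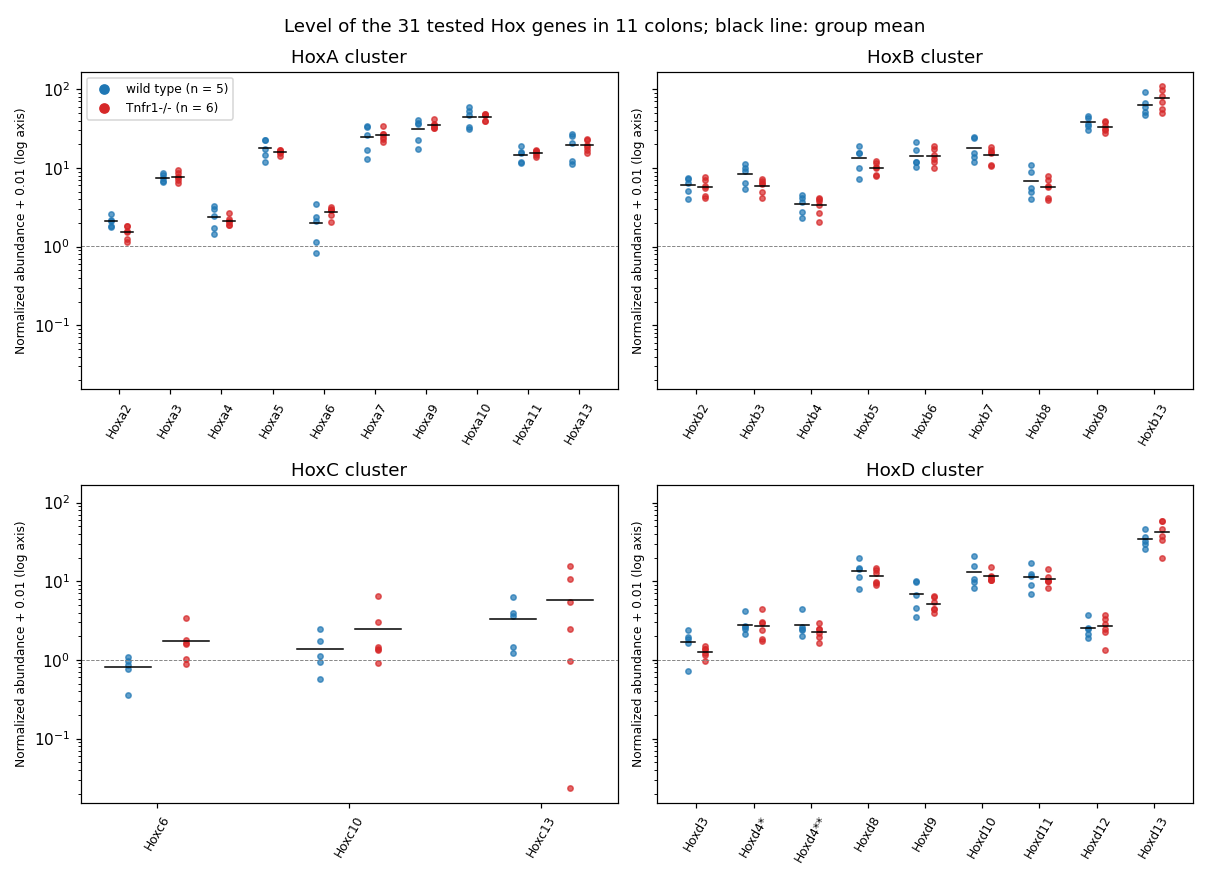
Level of the 31 tested Hox genes by cluster. The vertical log axis gives normalized abundance plus 0.01, points are single colons (blue, 5 wild type; red, 6 Tnfr1-/-), black bars are group means and the dashed line marks an abundance of 1. Hoxd4* is ENSMUSG00000101174 and Hoxd4** is ENSMUSG00000115956. Hoxb13 stands highest, Hoxc6 and Hoxc10 lie around the dashed line in most colons, and the blue and red points overlap for every tested gene.

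Hoxb13, a group 13 gene of the posterior body and prostate (ENSMUSG00000049604, chr11:96194316-96197447, plus strand), was the most abundant Hox gene. Its wild type replicates 1 to 5 stood at 67.4, 92.4, 46.8, 51.9 and 60.3, and the Tnfr1-/- colons ran from 49.5 (replicate 3) to 109 (replicate 2) around a median of 74.6. Wild type replicate 2 and Tnfr1-/- replicates 1 and 2 were high, and the groups overlapped. Next came Hoxa10 (ENSMUSG00000000938, chr6:52231197-52240854, minus strand), known for its role in the uterus and lumbar vertebrae. For Hoxa10, wild type replicates 1 to 5 stood at 59.6, 47.6, 33.2, 52.6 and 31.2, and the Tnfr1-/- colons ran from 39.4 (replicate 6) to 48.7 (replicate 5) around a median of 47.0. The wild type colons alone spanned more than the whole Tnfr1-/- range.

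Hoxd13, the last gene of HoxD and a gene of digits and the hindgut (ENSMUSG00000001819, chr2:74668310-74671599, plus strand), came after Hoxa10. For Hoxd13, wild type replicates 1 to 5 stood at 36.5, 32.3, 30.0, 25.3 and 46.2, and the Tnfr1-/- colons ran from 19.7 (replicate 3) to 58.0 (replicate 2) around a median of 41.7. Tnfr1-/- replicates 2 and 5 were the highest colons and Tnfr1-/- replicate 3 the lowest of all 11, so the wild type range fell inside the mutant one. Hoxa13, also a gene of digits, hindgut and genital tract (ENSMUSG00000038203, chr6:52257694-52260880, minus strand), stood lower. For Hoxa13, wild type replicates 1 to 5 stood at 25.2, 27.1, 11.3, 20.9 and 12.2, and the Tnfr1-/- colons ran from 15.4 (replicate 6) to 23.4 (replicate 1) around a median of 19.1. Wild type replicates 3 and 5 were the lowest colons and replicates 1 and 2 the highest.

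The order of the next genes by mean over 11 libraries was Hoxb9 (35.5), Hoxa9 (33.2), Hoxa7 (25.6), Hoxa13 (19.4), Hoxa5 (16.8) and Hoxb7 (16.2). Their SDs over libraries within a genotype ranged from 1.15 to 10.2. Compared within libraries, Hoxa9 exceeded Hoxa7, and Hoxa7 exceeded Hoxa13, in 11 of 11. Hoxb13 exceeded Hoxa10 in 10 of 11 libraries, wild type replicate 4 being the exception. The order of the other neighbours was less even, the gene with the higher mean standing higher in 8 of 11 libraries for Hoxa10 over Hoxd13, 6 for Hoxd13 over Hoxb9, 3 for Hoxb9 over Hoxa9, 7 for Hoxa13 over Hoxa5 and 7 for Hoxa5 over Hoxb7. The lowest genes that passed the filter of an abundance of at least 1 in 5 libraries were Hoxc6 (1.29), Hoxd3 (1.45) and Hoxa2 (1.77).

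The group 13 gene of HoxC varied far more than any other member. Hoxc13, known for hair, nail and squamous epithelium (ENSMUSG00000001655, chr15:102921103-102928814, plus strand), was the highest HoxC gene with a mean of 4.68. For Hoxc13, wild type replicates 1 to 5 stood at 3.56, 3.95, 6.37, 1.21 and 1.45, and the Tnfr1-/- colons ran from 0.0133 (replicate 5) to 15.5 (replicate 6) around a median of 3.91. Tnfr1-/- replicates 4 and 6 were the highest colons, and Tnfr1-/- replicate 5 was the only one with almost none. Its residual SD on the log2 scale lay at the 98.8th percentile of all tested genes.

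Of the 40 IDs, 31 passed the filter, which used all 11 libraries without regard to genotype. Among the other 9 were Hoxc4, Hoxc5, Hoxc8, Hoxc9, Hoxc11 and Hoxc12. So were Hoxb1 and Hoxd1, which lie at the 3′ ends of their clusters and were close to the floor: Hoxb1 did not exceed 0.226 and Hoxd1 0.0789 in any colon. Hoxc4 lay just under the filter, with 4 libraries at 1 or more, and Hoxc6 just over it, with 6. HoxC was thus represented among the tested genes by Hoxc6, Hoxc10 and Hoxc13 alone.

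Neighbouring genes of HoxA, HoxB and HoxD tended to move together from colon to colon, and Hoxa6 to Hoxa13 moved against most genes of HoxB and HoxD. Of the 3 HoxC genes, Hoxc6 went with Hoxc10 (r = 0.82) but neither with Hoxc13 (median r of the 3 pairs -0.20). Hoxa4 went with Hoxb5 (r = 0.84) and Hoxd8 (0.81) and against Hoxa13 (-0.62). Pearson r was taken over the 11 libraries on log2(abundance + 0.5) for all 465 pairs of tested members. Tested IDs next to each other in the order of a cluster had a median r of 0.78 (27 pairs). Other pairs of 1 cluster had 0.40 (93 pairs), pairs with the same paralogue number in different clusters 0.15 (28 pairs) and all pairs -0.020. The adjacent pairs skip untested genes, as for Hoxc6 with Hoxc10, and include the 2 Hoxd4 IDs with each other (r = 0.18). For comparison, neighbouring protein-coding genes across the genome had a median r of 0.067 (14269 pairs). An r of at least 0.6 was reached by 18 of the 27 adjacent Hox pairs (66.7%), against 12.1% of neighbouring pairs in the genome and 6.89% of all pairs of tested genes. Libraries share their tissue make-up, and pairs share genes, so these values are descriptive.

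**Figure D2:**
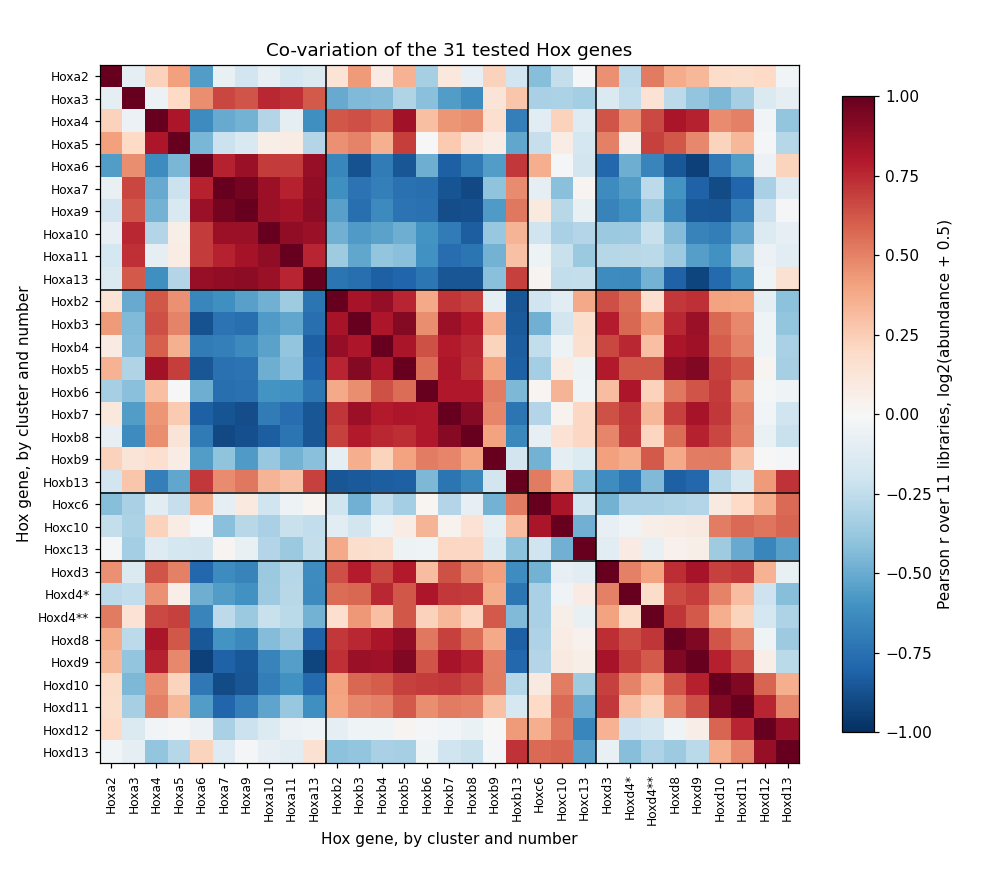
Pearson r over 11 libraries for every pair of the 31 tested Hox genes, ordered by cluster and number on both axes, with black lines between clusters. The colour scale runs from -1 (blue) to 1 (red). A red square spans Hoxa6 to Hoxa13 (median r 0.86), the squares of Hoxb2 to Hoxb8 (0.79) and of Hoxd8 to Hoxd11 are red too, and the block where Hoxa6 to Hoxa13 meet Hoxb2 to Hoxb8 is blue (-0.73). Over all HoxA with HoxB pairs the median is -0.49, and Hoxa4 and Hoxa5 show red there.

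A block at the 5′ side of HoxA, Hoxa6, Hoxa7, Hoxa9, Hoxa10, Hoxa11 and Hoxa13, held the tightest relation: its 15 pairs had r from 0.70 to 0.95. This block and the next 2 were set out after the correlations were seen. The highest pair of all was Hoxa7 with Hoxa9 (r = 0.95, rho = 0.90). Summed over the block, wild type replicates 1 to 5 stood at 174, 168, 96.3, 157 and 86.7, and the Tnfr1-/- colons ran from 128 (replicate 6) to 168 (replicate 1) around a median of 145. Wild type replicates 3 and 5 stood apart at the low end, wild type replicates 1, 2 and 4 were high, and every Tnfr1-/- colon lay above wild type replicates 3 and 5.

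The genes Hoxb2 to Hoxb8 formed a second block (21 pairs, median r 0.79, 18 at 0.6 or more). Summed over these 7 genes, wild type replicates 1 to 5 stood at 55.5, 47.5, 91.0, 65.2 and 92.6, and the Tnfr1-/- colons ran from 44.1 (replicate 1) to 71.1 (replicate 3) around a median of 64.7. Here wild type replicates 3 and 5 were the highest colons, the reverse of the HoxA block. Hoxb9 and Hoxb13 did not follow it: Hoxb13 correlated with Hoxb2 at r = -0.86.

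Within HoxD the genes Hoxd3 and Hoxd8 to Hoxd11 moved together (10 pairs, median r 0.72). Their sum was highest in wild type replicates 3 and 5, as for the HoxB block, but the mutant colons were ordered differently. For the HoxD sum, wild type replicates 1 to 5 stood at 36.0, 27.1, 59.6, 44.9 and 65.1, and the Tnfr1-/- colons ran from 34.7 (replicate 4) to 48.9 (replicate 5) around a median of 39.2. Tnfr1-/- replicate 4, the lowest mutant here, stood at 68.5 for the HoxB block. Wild type replicate 2 was the lowest colon. Between blocks, the 42 pairs of the HoxA block with Hoxb2 to Hoxb8 had a median r of -0.73 (31 pairs at -0.6 or less), the 30 pairs with the HoxD genes -0.67 (21 pairs), and the 35 pairs of the HoxB and HoxD blocks 0.67. Of all pairs of tested genes in the data, 6.02% reached -0.6 or less. The most opposed pair was Hoxa6 with Hoxd9 (r = -0.93). Taking deviations from each genotype's mean left the medians at 0.86 within the HoxA block and -0.73 against HoxB, so the pattern was as strong within genotypes.

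Hoxd13, taken as the reference for the caudal end, went with few other Hox genes. Its closest partner was its neighbour Hoxd12 (r = 0.87, permutation p = 0.000570, rho = 0.79, permutation p = 0.00514, two-sided, 100000 permutations), followed by Hoxb13 (r = 0.73, permutation p = 0.0117, rho = 0.75, permutation p = 0.0115). Adjusted over 15078 genes by Benjamini-Hochberg, these permutation p-values for r were 0.744 and 0.971, and for rho 0.686 and 0.868. Without the 2 libraries farthest from the Hoxd13 median, Tnfr1-/- replicates 2 and 3, r was 0.75 for Hoxd12 and 0.56 for Hoxb13. At an unadjusted p under 0.05 stood 2 of 30 Hox genes (6.67%), against 5.01% of all tested genes. By cluster the median r with Hoxd13 was -0.089 for HoxA, -0.23 for HoxB, 0.56 for the 3 HoxC genes and -0.17 for the other HoxD genes. Hoxa13 (r = 0.15) and Hoxc13 (r = -0.54) thus did not track Hoxd13, although they share its paralogue number.

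Outside the family, the genes most like Hoxd13 over the 11 libraries, by Pearson r among tested genes with a mean of at least 5, were Snx15 (r = 0.94), Pias2 (0.88), Cox8b (0.86), Slco2a1 (0.85), Trdn (0.85), Tcap (0.85), Scnn1g (0.85), Sln (0.85), Tnni2 (0.85) and Unc119 (0.84). Trdn, Tcap, Sln and Tnni2 are genes of striated muscle, and Scnn1g encodes a subunit of the epithelial sodium channel of the distal colon. The genes most opposed were Dhx38 (r = -0.86), Hipk2 (-0.82), Rnmt (-0.80), Hnrnpr (-0.79), Lpgat1 (-0.79), Tspan17 (-0.77), Tmem107 (-0.76), Mul1 (-0.75), Nqo1 (-0.75) and Zfp212 (-0.75). None of the 15078 genes passed an adjusted p of 0.05 for r, and 755 had an unadjusted p under 0.05.

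Markers of region and of cell type moved with several Hox genes, and their part in the Hox patterns was not tested. The marker correlations are given over 11 libraries as descriptions. Skeletal muscle markers went with Hoxd13 (r = 0.81, rho = 0.91) and with Hoxc10 (r = 0.83, rho = 0.44). For Hoxc10, wild type replicates 1 to 5 stood at 0.563, 0.923, 1.72, 1.11 and 2.49, and the Tnfr1-/- colons ran from 0.903 (replicate 1) to 6.49 (replicate 2) around a median of 1.41. Tnfr1-/- replicates 2 and 5, the colons richest in skeletal muscle RNA, were its highest, and leaving out the 2 libraries farthest on the marker scale brought r to 0.26 for Hoxc10 and 0.71 for Hoxd13. Over the family, 6 of 31 Hox genes reached 0.6 in either direction with the skeletal muscle list (19.4%), against 8.88% of all tested genes.

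Regional markers went with the group 13 genes unevenly. Of the distal colon list 4 of 5 genes were in the table, none at 0, and they summed to 183 to 269 in wild type and 178 to 242 in Tnfr1-/- colons. Hoxb13 followed that list (r = 0.82, rho = 0.94), including Scnn1b (r = 0.82, rho = 0.85). Hoxd13 followed it too (r = 0.79, rho = 0.84), including Scnn1g (r = 0.85, rho = 0.84), and Hoxa13 less so (r = 0.38, rho = 0.43). Not every distal marker moved this way. Pyy was highest in wild type replicates 5 (234) and 3 (187), where Hoxb13 stood at 60.3 and 46.8. Insl5 was lowest in wild type replicate 5 (19.5), where Hoxd13 stood at 46.2. With the list as a whole 6 of 31 Hox genes reached 0.6 in either direction (19.4%), against 11.5% of all tested genes. Hoxa13 went more closely with Aqp4, a water channel higher in the proximal colon (r = 0.91, rho = 0.94), as did Hoxa7 (r = 0.86, rho = 0.95). For Aqp4, wild type replicates 1 to 5 stood at 94.4, 124, 20.3, 34.7 and 17.3, and the Tnfr1-/- colons ran from 21.8 (replicate 6) to 65.4 (replicate 1) around a median of 33.7, with wild type replicates 1 and 2 high and 3 and 5 low, as for the HoxA block. Wild type replicates 1 and 2 were also the colons highest in epithelial RNA, and the epithelial list went with Hoxa13 (r = 0.69, rho = 0.77, and r = 0.50 without the 2 libraries farthest on the marker scale) and with Hoxa7 (r = 0.62, rho = 0.78, and r = 0.42). With that list 5 of 31 Hox genes reached 0.6 in either direction (16.1%, against 31.1% of all tested genes). Osr2, another gene on the proximal list, went the other way, with Hoxb7 (r = 0.86, rho = 0.84) and Hoxb8 (r = 0.86, rho = 0.76). The 2 proximal markers thus fell on opposite sides of the Hox pattern. The whole proximal list went with Hoxa13 (r = 0.67, rho = 0.75) and with Hoxb13 (r = 0.51, rho = 0.65). Without the 2 libraries farthest on the marker scale, r was 0.40 for Hoxa13 and 0.65 for Hoxb13. Besides Osr2, Cyp2c55 on this list did not track Hoxa13: it was highest in wild type replicates 5 (646) and 2 (640), where Hoxa13 stood at 12.2 and 27.1. Hoxa13 and Hoxb13 also went with each other (r = 0.68, rho = 0.69). With the proximal list as a whole (4 of 4 measured, none at 0, summing to 751 to 1105 in wild type and 834 to 937 in Tnfr1-/-), 6 of 31 Hox genes reached 0.6 in either direction (19.4%), below the 32.1% of all tested genes. The small intestine list (5 of 7 tested, none at 0, summing to 90.5 to 170.0 in wild type and 70.0 to 116 in Tnfr1-/-) went with 14 of 31 Hox genes in either direction at 0.6 (45.2%, against 15.6% of all tested genes). Among them were Hoxb3 (r = 0.84, rho = 0.76), Hoxb5 (r = 0.84, rho = 0.83) and, inversely, Hoxb13 (r = -0.75, rho = -0.73). The small intestine list did not move as one. Fabp6 was highest in wild type replicate 2 (9.07) and lowest in wild type replicate 3 (2.34), where Hoxb3 stood at 5.32 and 11.1. Alpi, Sis, Apoa4 and Apoa1 were all higher in wild type replicate 3 than in replicate 2, Apoa4 most widely (8.31 and 1.33).

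Enteric neuron markers moved with genes of the HoxB and HoxD blocks. With the neuron list (5 of 6 tested, Chat being low, none at 0, summing to 80.5 to 186 in wild type and 86.3 to 131 in Tnfr1-/- colons) 15 of 31 Hox genes reached 0.6 in either direction (48.4%), against 29.0% of all tested genes. Hoxb5, known to act in neural crest cells that form the enteric nervous system, had the highest value (r = 0.95, rho = 0.93). Among single markers it went with Elavl4 (r = 0.96, rho = 0.98). For Hoxb5, wild type replicates 1 to 5 stood at 9.86, 7.31, 18.7, 15.3 and 15.5, and the Tnfr1-/- colons ran from 7.86 (replicate 1) to 12.1 (replicate 3) around a median of 10.1. Wild type replicates 3, 4 and 5 were highest and wild type replicate 2 lowest. Hoxb3 (r = 0.87, rho = 0.80), Hoxd8 (r = 0.87, rho = 0.84) and Hoxa4 (r = 0.88, rho = 0.78) followed the same list, and Hoxb13 opposed it (r = -0.84, rho = -0.75). The glial list gave 16 of 31 (51.6%, against 29.8% of all tested genes). Hoxd11 went most closely with endothelial markers (r = 0.91, rho = 0.94), a list with which 9 of 31 Hox genes reached 0.6 in either direction (29.0%, against 21.9% of all tested genes).

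Hoxc13 followed the squamous list (r = 0.72, rho = 0.63), a relation that rested on the 2 libraries farthest on the marker scale, since r was 0.31 without them. Its highest values with single markers were for Trp63 (r = 0.86, rho = 0.75) and Krt5 (r = 0.81, rho = 0.60), markers of basal cells of stratified epithelium. The colon with almost no Hoxc13, Tnfr1-/- replicate 5, had the least Krt5 (19.2) and Trp63 (1.08), and Tnfr1-/- replicates 4 and 6 had the most Trp63 (13.8 and 12.7). Krt14, Dsg3, Krtdap, Sprr1a and Lor were also lowest in Tnfr1-/- replicate 5, but Krt13, Krt4 and Krt6a were not. Krt13 stood at 100 there, above every wild type colon (38.1 to 95.9). Tnfr1-/- replicate 2 had the most Krt13 (183) and Krt4 (73.6), with Hoxc13 at 0.957. Krt13 (r = 0.67, rho = 0.69) and Krt4 (r = 0.75, rho = 0.78) went with Hoxd13. No Hox gene other than Hoxc13 reached 0.6 with the squamous list as a whole, so 1 of 31 did (3.23%), against 7.64% of all tested genes.

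**Figure D3:**
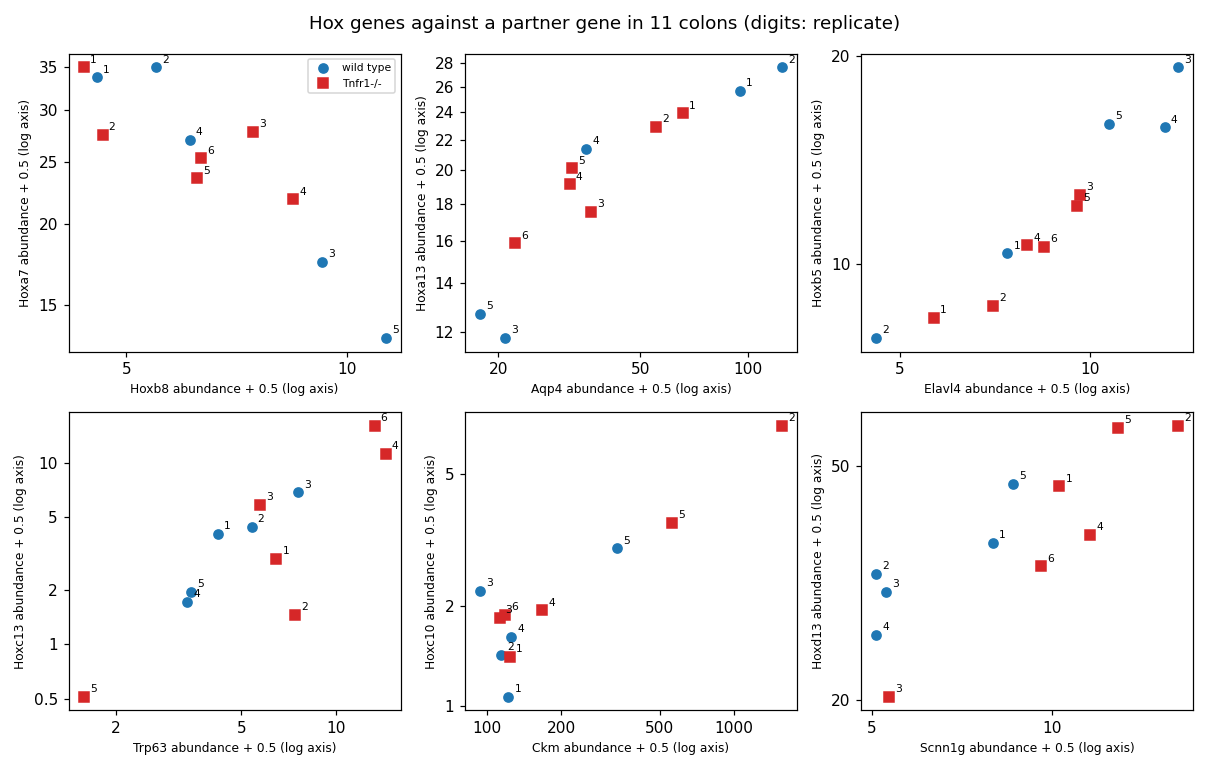
Pairs of a Hox gene (vertical axis) and a partner (horizontal axis), both as normalized abundance plus 0.5 on log axes. Points are single colons (blue circles, wild type; red squares, Tnfr1-/-) and digits are replicate numbers. Hoxa7 falls as Hoxb8 rises, Hoxa13 rises with Aqp4, Hoxb5 with Elavl4, Hoxc13 with Trp63 and Hoxd13 with Scnn1g, while for Hoxc10 with Ckm the Tnfr1-/- colons 2 and 5 lie beyond the others on both axes.

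Between genotypes no Hox gene passed the test after adjustment over all genes. The comparison asks whether loss of TNFR1 altered the positional genes of the colon, and each tested gene was fitted with limma over all 11 libraries. Of 31 tested Hox genes 0 had an adjusted p under 0.05, against 1 of 15079 genes (0.00663%). At an unadjusted p under 0.05 stood 3 Hox genes (9.68%), 1 higher and 2 lower in Tnfr1-/- colons, and 9.37% of all tested genes did so (4.2% higher and 5.17% lower). None of the 31 had groups that did not overlap, against 1.49% of all tested genes. The median log2 fold change was -0.046 over the 31, beside -0.0061 over all genes, with 17 lower (54.8%, against 52.1% of all tested genes) and 14 higher.

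**Figure D4:**
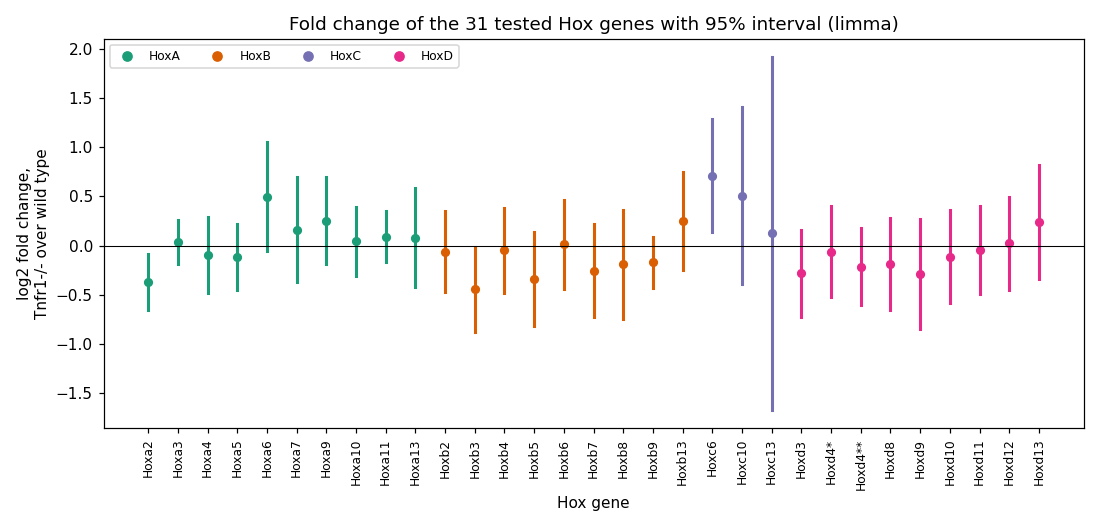
log2 fold change of Tnfr1-/- over wild type (points) with its 95% interval from limma (lines) for the 31 tested Hox genes, ordered by cluster and number. The interval excludes 0 only for Hoxa2, Hoxb3 and Hoxc6, none of which passed adjustment, and that of Hoxc13 reaches from -1.67 to 1.92.

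Hoxa2, the most anterior paralogue group tested and a gene of the hindbrain and branchial arches (ENSMUSG00000014704, chr6:52162417-52164831, minus strand), had the smallest p-value. For Hoxa2, wild type replicates 1 to 5 stood at 2.11, 1.81, 2.61, 2.16 and 1.77, and the Tnfr1-/- colons ran from 1.12 (replicate 3) to 1.82 (replicate 1) around a median of 1.55. The groups overlapped at their edges only. The log2 fold change, on log2(abundance + 0.5), was -0.37 (95% interval -0.65 to -0.088, SE 0.13, limma adjusted p = 0.429). Hoxb3 (ENSMUSG00000048763, chr11:96323326-96347930, plus strand) was also lower on average: wild type replicates 1 to 5 stood at 6.40, 5.32, 11.1, 9.20 and 9.98, and the Tnfr1-/- colons ran from 4.12 (replicate 2) to 7.22 (replicate 4) around a median of 6.27, with wild type replicates 1 and 2 inside the mutant range. Its log2 fold change was -0.44 (95% interval -0.87 to -0.013, SE 0.20, limma adjusted p = 0.525).

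Hoxc6 (ENSMUSG00000001661, chr15:102998257-103011881, plus strand), a gene of thoracic identity, was higher on average in the mutant. For Hoxc6, wild type replicates 1 to 5 stood at 0.348, 1.08, 0.852, 0.749 and 0.958, and the Tnfr1-/- colons ran from 0.874 (replicate 3) to 3.37 (replicate 2) around a median of 1.60. Tnfr1-/- replicate 2, the colon richest in skeletal muscle RNA, stood well above the others. The log2 fold change was 0.71 (95% interval 0.14 to 1.28, SE 0.26, limma adjusted p = 0.454). Hoxa6 (ENSMUSG00000043219, chr6:52206288-52208722, minus strand) was also tested: wild type replicates 1 to 5 stood at 2.40, 3.42, 0.811, 2.09 and 1.14, and the Tnfr1-/- colons ran from 2.02 (replicate 6) to 3.21 (replicate 2) around a median of 2.93. Its log2 fold change was 0.50 (95% interval -0.058 to 1.05, SE 0.25, limma adjusted p = 0.574). Wild type replicate 3 was the lowest colon for Hoxa6 and wild type replicate 2 the highest, so wild type enclosed the mutant range.

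Hoxb5 and Hoxb9 completed the 6 smallest p-values. Hoxb5, whose values are given above, had a log2 fold change of -0.34 (95% interval -0.82 to 0.14, SE 0.22, limma adjusted p = 0.665). For Hoxb9, wild type replicates 1 to 5 stood at 36.7, 34.6, 42.9, 30.2 and 45.1, and the Tnfr1-/- colons ran from 28.1 (replicate 6) to 39.0 (replicate 1) around a median of 32.5. Its log2 fold change was -0.17 (95% interval -0.43 to 0.087, SE 0.12, limma adjusted p = 0.682). For both genes the mutant colons lay within or just below the wild type range.

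The group 13 genes had wide intervals. The log2 fold change was 0.25 (95% interval -0.24 to 0.75, SE 0.23, limma adjusted p = 0.756) for Hoxb13 and 0.24 (95% interval -0.34 to 0.82, SE 0.26, limma adjusted p = 0.808) for Hoxd13. It was 0.078 (95% interval -0.43 to 0.58, SE 0.23, limma adjusted p = 0.949) for Hoxa13 and 0.12 (95% interval -1.67 to 1.92, SE 0.82, limma adjusted p = 0.978) for Hoxc13. Without Tnfr1-/- replicates 2 and 5, the colons richest in skeletal muscle RNA, the estimate for Hoxd13 was -0.031. For Hoxa10, the highest HoxA gene, the log2 fold change was 0.043 (95% interval -0.31 to 0.40, SE 0.16, limma adjusted p = 0.962).

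The data bounded most Hox changes even so. For 27 of 31 Hox genes (87.1%) the 95% interval lay inside a 2-fold change either way, against 93.2% of all tested genes. The exceptions were Hoxa6, Hoxc6, Hoxc10 and Hoxc13. Hox genes were more variable between colons of the same genotype than most genes: 23 of 31 (74.2%) had a residual SD in the top 20% of all tested genes. By cluster the median log2 fold change was 0.060 for HoxA (3 of 10 lower), -0.17 for HoxB (7 of 9 lower), 0.51 for the 3 HoxC genes (0 lower) and -0.11 for HoxD (7 of 9 lower). These counts rest on genes that moved together and on few colons.

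At the level of transcripts the result was the same. The 87 Hox transcripts belong to 16 genes with 1 transcript and 24 with several, and in 12 of those 24 a single transcript held at least 80% of the abundance. Of 48 tested Hox transcripts 0 passed an adjusted limma p of 0.05 (against 0.00902% of 33276) and 2 had an unadjusted p under 0.05 (against 8.26%), 1 of Hoxb3 and 1 of Hoxa2. The authors' deposited table gives p-values for 64 Hox transcripts, of which 4 were under 0.05 (6.25%, against 4.39% of all 49810), and 0 had a q-value under 0.05. Those 4 in the authors' deposited table were transcripts of Hoxc6 (log2 fold change 1.12, p = 0.00974), Hoxb3 (-0.50, p = 0.0188), Hoxa2 (-0.47, p = 0.0228) and Hoxc9 (0.93, p = 0.0367).

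Among the partners and regulators of Hox genes, 39 genes were tested and 0 passed an adjusted p of 0.05, while 6 had an unadjusted p under 0.05 (15.4%, 5 higher and 1 lower), against 9.37% of all tested genes (4.2% higher and 5.17% lower). The 1 lower gene was Cdx2, the caudal-type factor that acts upstream of Hox genes in the hindgut and defines intestinal epithelium. For Cdx2, wild type replicates 1 to 5 stood at 117, 104, 129, 102 and 122, and the Tnfr1-/- colons ran from 55.7 (replicate 2) to 92.4 (replicate 3) around a median of 78.1. Every mutant colon lay below every wild type colon, and 1.49% of all tested genes had groups that did not overlap. The log2 fold change of Cdx2 was -0.60 (95% interval -0.85 to -0.35, SE 0.12, limma adjusted p = 0.289). Its paralogue Cdx1 had a log2 fold change of -0.17 (limma adjusted p = 0.626). Cdx2 is itself on the epithelial marker list, on which Epcam averaged 804 ± 121 (SD, n = 5) in wild type and 728 ± 63.6 (SD, n = 6) in Tnfr1-/- colons. Over the 11 colons Cdx2 correlated with Hoxb3 (r = 0.70, rho = 0.55) and inversely with Hoxb13 (r = -0.57, rho = -0.52).

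The 9 cofactors of the PBX, MEIS and PKNOX families, which bind DNA beside Hox proteins, included 0 genes at an unadjusted p under 0.05. Of 17 Polycomb and Trithorax genes, which keep Hox clusters silent or active, 3 did so and all were higher, where 4.2% of all tested genes were: Kmt2a (log2 fold change 0.28, limma adjusted p = 0.414), Ezh1 (0.16, 0.433) and Cbx2 (0.29, 0.475). Of 9 genes of the retinoic acid pathway, which switches on the 3′ ends of Hox clusters, 2 did so, both higher: the receptor Rarg (log2 fold change 0.33, limma adjusted p = 0.482) and the binding protein Crabp2 (0.76, 0.531). Both were highest in Tnfr1-/- replicates 4 and 6 (Rarg 29.4 and 30.0, Crabp2 24.3 and 21.9), the colons with the most Trp63. Tnfr1-/- replicate 5, with the least Trp63, had the least Crabp2 (4.89), while its Rarg (19.2) lay inside the wild type range. The part of squamous epithelium in these values was not tested. Cdx4, Pdx1, Evx1, Gbx2 and Cyp26a1 were below the filter. The median log2 fold change over the 39 genes was 0.068, with 26 higher and 13 lower.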

How the data were processed

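Poly(A) RNA of the colon was sequenced as stranded single-end 75-base reads in 11 mice, per the labels' protocols. Base calling with CASAVA, quantification with kallisto, testing with sleuth and the mm10 build are listed, without versions, per the submitters' processing notes. The deposited signal is a normalized abundance per transcript, with column sums close to those of TPM, and the deposited p-values, q-values and log2 fold changes come from the authors' own test. Repeated transcript rows were dropped and library values summed per Ensembl gene. Genes with an abundance of at least 1 in 5 libraries (15079) were tested with limma 3.58.1 on log2(abundance + 0.5), genotype alone, with Benjamini-Hochberg adjustment over all of them. The values are not counts: 56.0% to 59.3% of low values were whole reads (tolerance 0.02) at the best depth factor, so depth is an estimate and no count test was run. Correlations with Hoxd13 used 100000 permutations. Coordinates come from GENCODE M21 (GRCm38, the build of mm10), and promoters from RefSeq (GRCm38.p6). Scripts used Python 3.11.15, numpy 2.4.6, scipy 1.17.1 and R 4.3.3, and were tested on simulated data.

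The members, gene lists and comparisons were chosen with earlier results of these data known. Full values are given for group 13 genes, the highest gene of each cluster and the 6 smallest p-values between genotypes; Hoxc10, Hoxa7, Hoxb7, Hoxb8, Hoxd8, Hoxd9, Hoxd11, Hoxd12, Hoxa4, Aqp4 and the gene blocks were singled out after their values were seen. Outside the family, the 10 highest and 10 lowest correlates of Hoxd13 and list members with an unadjusted p under 0.05 are named. Nothing says whether mice came from separate litters, so p-values measure the spread between these colons. Alternatives were quantile normalization, rescaled columns, no filter, a filter at 10, pseudocounts of 1 and 0.1, sample weights, a replicate block and leaving out libraries. Some genes are not reported here.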

Additional observations from a re-analysis of the deposited data

Results flagged for a closer look

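In 6 of 80 sets of values (each Hox gene in each genotype) 1 colon stood far from the others of its group, where chance flags about 1 in 20 groups, or 4 of 80. The HoxC genes among them were all high in Tnfr1-/- replicate 2, which reached 3.37 for Hoxc6 (next highest 1.78), 1.67 for Hoxc9 (next highest 0.778) and 2.12 for Hoxc11 (next highest 0.776). That colon also had the most skeletal muscle RNA (Ckm at 1566), and the part of that RNA in these values was not tested. Hoxd10 reached 15.3 in Tnfr1-/- replicate 5 (next highest 11.6). Hoxd4 under the ID ENSMUSG00000115956 reached 4.39 in wild type replicate 3 (next highest 2.60). Hoxd1 reached 0.0789 in wild type replicate 1 (next highest 0.0463), a level of a few reads.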

How the results depend on the processing

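No Hox gene had an adjusted p under 0.05 in any of 21 alternatives, the lowest being 0.138 and the highest 0.9998. The number of Hox genes at an unadjusted p under 0.05, 3 as reported, was 5 with no filter, 0 with a filter at 10, 10 with sample quality weights, and 2 to 7 with 1 library left out, 7 being without wild type replicate 2. After seeing the data, 2 further fits were added. Without the 2 libraries highest in skeletal muscle RNA (Tnfr1-/- replicates 2 and 5) the number was 1, and without the 2 highest in epithelial RNA (wild type replicates 1 and 2) it was 10, with a median log2 fold change of -0.22 in place of -0.046 (-0.16 to 0.024 with 1 library left out). The cause was not tested. Hoxc6 was not tested without the skeletal muscle libraries, since it fell under the filter. Directions that turned were those of Hoxa10 (-0.00035) and Hoxd13 (-0.031) without the skeletal muscle libraries, and of Hoxc13 with a pseudocount of 0.1 (-0.16). With 1 library left out, log2 fold changes ran from -0.075 to 0.16 for Hoxa10, -0.088 to 0.22 for Hoxa13 and -0.30 to 0.69 for Hoxc13. Ranges that kept their sign but moved by over 1.5 times were 0.30 to 0.69 for Hoxa6, -0.53 to -0.20 for Hoxb5, -0.25 to -0.10 for Hoxb9, 0.14 to 0.40 for Hoxb13 and 0.13 to 0.44 for Hoxd13. Hox transcripts at an unadjusted p under 0.05 numbered 0 to 5 (2 as reported), and partner and regulator genes 3 to 8 (6 as reported). The median r of HoxD genes with Hoxd13 was 0.086 without the 2 libraries farthest from the Hoxd13 median and -0.29 to -0.013 with 1 library left out. The median r within the HoxA block stayed at 0.81 to 0.88 and against Hoxb2 to Hoxb8 at -0.80 to -0.66.

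Whether replicate numbers pair the mice could not be settled: same-numbered colons deviated from their group means with correlations of -0.22 to 0.38. The values were 0.27, 0.38 and 0.33 for replicates 1, 3 and 5, and -0.0060 and -0.22 for replicates 2 and 4. With the replicate block, which used replicates 1 to 5 of each genotype, 6 Hox genes had an unadjusted p under 0.05, 0 an adjusted one, and the log2 fold change of Hoxc13 was -0.30. A count test with DESeq2 was not run, since the values are not counts.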
